A study of Mus musculus with 8 samples.

Results

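The nuclear-encoded subunits of the respiratory chain were compared between 2 regions of the aged mouse striatum. The set holds every gene symbol in the count tables that begins with Ndufa, Ndufb, Ndufc, Ndufs or Ndufv and a number, that is Sdha, Sdhb, Sdhc, Sdhd or Cyc1, or that begins with Uqcr, Cox4 to Cox8 or Atp5. This rule took 85 of 32531 genes, 37 assigned to complex I, 4 to complex II, 9 to complex III, 18 to complex IV and 17 to complex V. Of these, 77 had enough counts to be tested, and the other 8 are given by their counts. Ndufa4 was kept under complex I by its symbol, although it is known today as a subunit of complex IV. Atp5s and Atp5sl were kept under complex V by their symbols, although they are not subunits of that enzyme.

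The data are 4 libraries of the accumbens nucleus and 4 of the dorsal striatum, each made from RNA pulled down with tagged ribosomes. All mice were Drd1-EGFP/Rpl10a (CP73) animals older than 20 months and received no treatment. In them the Drd1 promoter, active in neurons with the D1 dopamine receptor, drives ribosomal protein L10a fused to EGFP, and antibodies to EGFP pull down the ribosomes of the cells that use it. All 8 libraries are such pulldowns, so enrichment over whole tissue was not measured. The labels number the libraries 1 to 4 in each region and do not say if a library came from a single animal or from pooled ones. The p-values measure only how far these libraries spread, which may be technical. In bulk samples such as these, fewer cells of a type and less RNA per cell cannot be told apart.

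The respiratory chain sits in the inner mitochondrial membrane and passes electrons from NADH and succinate to oxygen. Complexes I, III and IV pump protons as electrons pass through them, complex II feeds in electrons from succinate without pumping, and complex V, the ATP synthase, makes ATP as the protons flow back. Complexes I, III, IV and V also contain subunits encoded by mitochondrial DNA, whereas complex II is wholly nuclear-encoded. Neurons rely on this supply of ATP to restore ion gradients after firing.

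Gene counts ran from 10831937 to 12639641 in accumbens libraries and from 7466970 to 10363145 in dorsal striatum libraries. A count of 3 in a library corresponded to between 0.237 and 0.402 CPM, the count after scaling by library size, here without the TMM correction that all other CPM carry unless they are called unscaled or on library totals. Drd1, the defining marker of D1 projection neurons, was present in every library and averaged 435 ± 86.5 CPM in accumbens and 605 ± 60.9 CPM in dorsal striatum (SD, n = 4 each). The summed level of the 9 D1 markers was 1981 to 2247 CPM in accumbens and 2322 to 2658 CPM in dorsal striatum, ranges that overlap on library totals without TMM scaling (1983 to 2304 and 2248 to 2602). The 11 markers shared by both projection neuron types summed to 10964 to 12098 CPM in accumbens and 14840 to 16992 CPM in dorsal striatum. The 7 D2 neuron markers summed to 628 to 909 CPM in accumbens and 223 to 333 CPM in dorsal striatum. Of the 9 D1 markers, 2 had positive and 7 negative log2 fold changes of accumbens over dorsal striatum, from -1.25 to 1.02. In the edgeR test used below, 1 D1 marker was called higher in accumbens and 2 lower. Of the tested markers, 3 of 6 D2 and 1 of 8 astrocyte markers were called higher, and 6 of 11 shared ones lower. Over all tested genes 1.6% were called higher and 2.12% lower. Astrocyte markers summed to 348 to 797 CPM in accumbens and 339.7 to 486 CPM in dorsal striatum, and oligodendrocyte markers to 129 to 333 CPM and 124 to 199 CPM in the same order of regions. Microglial markers summed to 4.80 to 17.3 CPM in accumbens and 0.99 to 4.35 CPM in dorsal striatum, with C1qa at 0 in all 8 libraries. The summed markers of interneurons, oligodendrocyte precursors and vascular cells overlapped between the regions. The part of these other cells in the levels below was tested only by a fit with the mean astrocyte, oligodendrocyte and microglia marker level as a covariate.

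The libraries of a region differed among themselves in the respiratory chain genes, and the deviation differed with transcript length, most in dorsal striatum 3 and 4. Dorsal striatum 3 had the lowest level of the 4 dorsal striatum libraries for 44 of the 77 tested genes (57.1%), against 30.8% of all tested genes. For the 48 genes of the set with a transcript under 1 kb (1000 bases), its median deviation from the region mean was -0.36 on the scale of log2(CPM + 1), and for all tested genes under 1 kb it was -0.30. For the 29 genes of the set with longer transcripts that deviation was -0.07. In dorsal striatum 4 the same medians were 0.23 for the short and -0.03 for the long transcripts of the set. Accumbens 2 was the lowest library of its region for 31 genes of the set (40.3%, against 31.7% of all tested genes), and it deviated by -0.07 in the short and -0.14 in the long transcripts. Dorsal striatum 1 was the highest library of its region for 33 genes of the set (42.9%, against 22.6% of all tested genes). Accumbens 1 was the highest of its region for 35 (45.5%, against 21.5%). Both had medians above the region mean in short and in long transcripts of the set. Over all tested genes the short and long medians were 0.12 and 0.007 in accumbens 1 and -0.105 and 0.001 in accumbens 2. In dorsal striatum 1 they were 0.17 and -0.0003, and in dorsal striatum 4 they were 0.12 and -0.006. The median coefficient of variation over the 77 genes was 17.8% in accumbens and 21.5% in dorsal striatum, and it was the larger in dorsal striatum for 52 of them. It was not computed over all tested genes, and every dorsal striatum library had fewer gene counts than every accumbens library. This spread can therefore not be read as particular to the set.

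**Figure D1:**
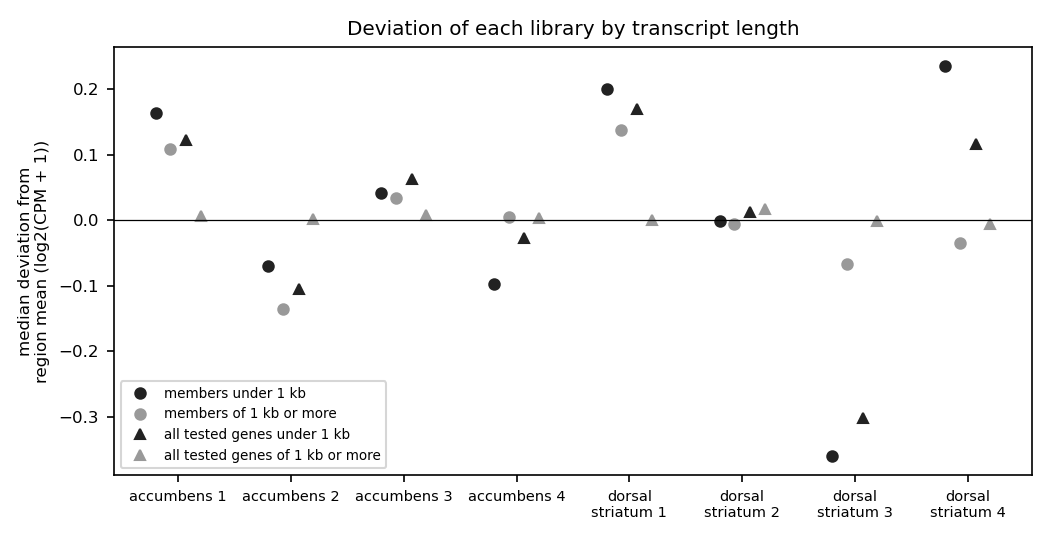
Median deviation of each library from the mean of its region, in log2(CPM + 1), for respiratory chain genes (circles) and all tested genes (triangles), split at a transcript length of 1 kb (black, shorter; grey, longer). Dorsal striatum 3 lies lowest for both sets of short transcripts, at -0.36 and -0.30.

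No respiratory chain gene passed the test for a difference between accumbens and dorsal striatum. Of the 77 tested genes, 0 were called higher and 0 lower in accumbens at an adjusted p under 0.05 (edgeR quasi-likelihood test, Benjamini-Hochberg over 12467 genes). Of all tested genes, 464 were called (3.72%), with 200 higher in accumbens (1.6%) and 264 lower (2.12%). DESeq2 and limma-voom also called 0 genes of the set. At an unadjusted p under 0.05 there were 2 genes of the set, Ndufs3 and Uqcrc2, against 14.8% of all tested genes.

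The estimated differences were small and lay on both sides of 0. The log2 fold change of accumbens over dorsal striatum was positive for 32 genes and negative for 45. Its median was -0.04 over the set and 0.02 over all tested genes, and the median of its absolute value was 0.16 over the set and 0.29 over all tested genes. Without dorsal striatum 3 the median over the set was -0.12, with 20 positive and 57 negative values, and without dorsal striatum 1 it was 0.00, with 39 positive and 38 negative. The balance of signs thus depended on single libraries. The median standard error was 0.21, from 0.10 for Atp5b to 0.64 for Atp5l. Over all tested genes it was 0.32, so the estimates of the set were also the more precise. The part of this precision in the smaller absolute values was not tested. The 95% interval of the fold change stayed within 1.5-fold in either direction for 29 of the 77 genes and reached past 1.5-fold in at least 1 direction for the other 48. It stayed within 2-fold for 71 genes and included no change for 75.

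**Figure D2:**
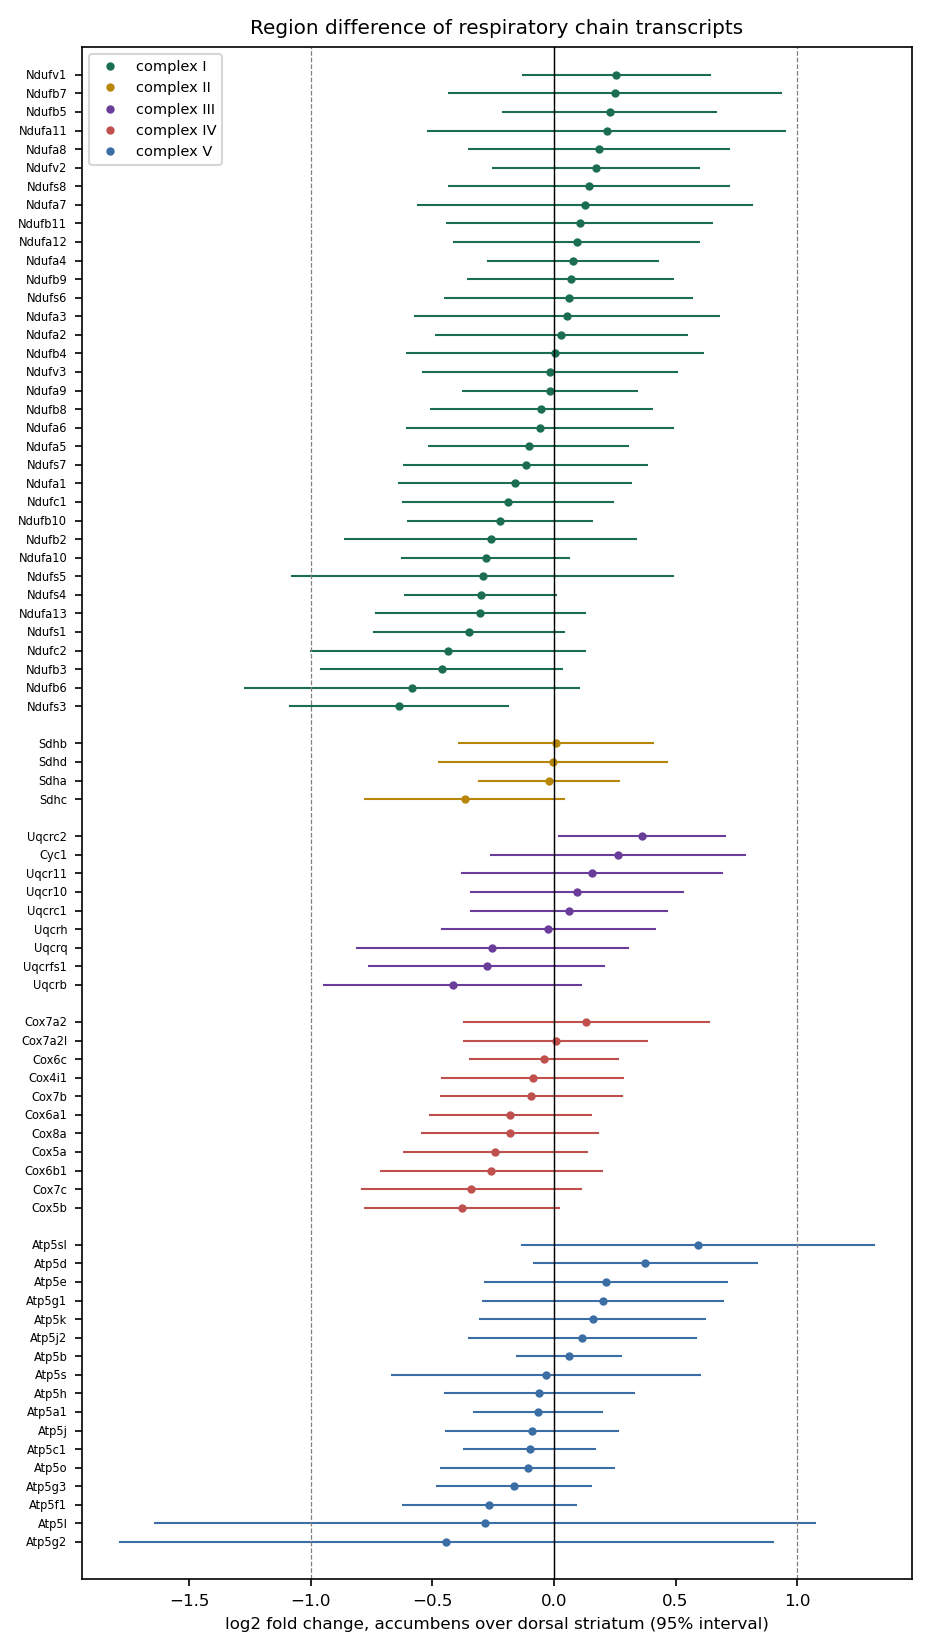
Log2 fold change of accumbens over dorsal striatum with its 95% interval (line) for the tested genes reported here, grouped by complex. Dashed lines mark 2-fold. Estimates run from -0.64 for Ndufs3 to 0.59 for Atp5sl, and the intervals of Ndufs3 and Uqcrc2 do not include 0.

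By complex, the summed levels also lay close together. Complex I summed to 1889 ± 134 CPM in accumbens and 1984 ± 149 CPM in dorsal striatum, complex II to 795 ± 53.7 and 826 ± 90.1 CPM, complex III to 604.5 ± 39.4 and 575 ± 84.2 CPM, complex IV to 1098 ± 132 and 1224 ± 203 CPM, and complex V to 3647 ± 141 and 3618 ± 56.2 CPM (SD, n = 4 each, accumbens before dorsal striatum throughout). The libraries of the regions overlapped in every complex. All members together made up 0.815% of gene counts in accumbens and 0.808% in dorsal striatum. The log2 ratio of the means was -0.03 for all members on TMM-scaled CPM, 0.01 on unscaled CPM and 0.06 on TPM, which is also scaled by transcript length, so its sign depended on the scaling. For complexes I and II it was negative on both CPM scales (-0.07 and -0.06 with TMM scaling) and positive on TPM (0.05 and 0.06). Complex IV was lower in accumbens on all 3 scales (-0.16, -0.11 and -0.06), differences smaller than its spread between libraries. Complexes III (0.07, 0.12 and 0.11) and V (0.01, 0.06 and 0.12) were higher on all 3. Several of these signs rested on single libraries. Without dorsal striatum 3, complex III came to 604.5 CPM in accumbens and 609 CPM in dorsal striatum, a log2 ratio of -0.01 with TMM scaling and also -0.01 on TPM, and it stayed positive on unscaled CPM (0.03). Without the same library complex II turned to 0.01 with TMM scaling and 0.05 on unscaled CPM, complex I to -0.02 on TPM, and all members to -0.02 on unscaled CPM and -0.005 on TPM. Complex IV turned on TPM to 0.002 without accumbens 4 and to 0.02 without dorsal striatum 4, and complex V to -0.01 with TMM scaling without accumbens 3. On unscaled CPM and on TPM complex V stayed positive with each library left out. Its TPM sums were 8687 ± 493 in accumbens and 7967 ± 340 in dorsal striatum (SD, n = 4 each). That difference was larger than either SD, and the libraries of the regions still overlapped. On unscaled CPM complex I was 0.01 without accumbens 2 and 0.02 without dorsal striatum 1, and without accumbens 1 complex II was 0.03 and all members -0.02, while complex I on TPM was -0.01.

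**Figure D3:**
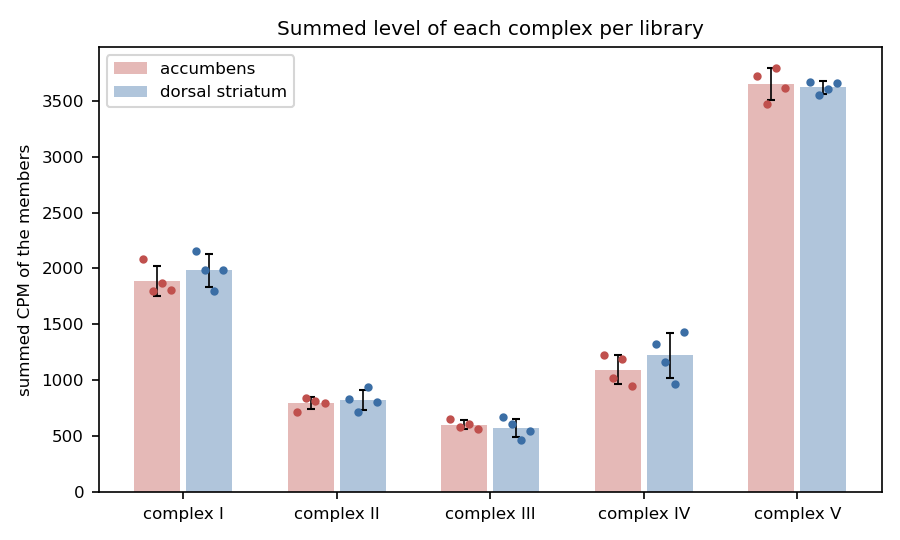
Summed CPM of the members of each complex, as mean (bar), SD (line) and the 4 libraries of each region (points), accumbens left of dorsal striatum. Complex V has the highest sum, 3647 CPM in accumbens and 3618 CPM in dorsal striatum, and the points of the regions overlap in every complex.

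In complex I, 36 genes were tested, with 17 positive and 19 negative log2 fold changes and a median of -0.02, which ran from -0.14 without dorsal striatum 3 to 0.08 without dorsal striatum 1. Ndufv1, which carries the flavin that takes electrons from NADH, had the highest estimate of the complex. It stood at 105, 71.7, 101 and 75.8 CPM in accumbens libraries 1 to 4 and at 83.2, 82.7, 62.7 and 66.7 CPM in dorsal striatum libraries 1 to 4. Accumbens 1 and 3 were above every dorsal striatum library and accumbens 2 and 4 were not (log2 fold change 0.26, SE 0.18, edgeR adjusted p = 0.585). Ndufs1, the large iron-sulfur subunit of the same NADH-oxidising module, was at 88.9, 58.4, 90.9 and 85.3 CPM in accumbens and 89.6, 91.8, 132 and 99.4 CPM in dorsal striatum. Dorsal striatum 3 was the highest library and accumbens 2 the lowest, with the other 6 between 85.3 and 99.4 CPM (log2 fold change -0.35, SE 0.18, edgeR adjusted p = 0.406). Without dorsal striatum 3 the estimate for Ndufs1 was -0.21.

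Ndufs3, a core subunit of the peripheral arm, had the largest estimate of the whole set. It was at 57.2, 30.9, 45.4 and 51.2 CPM in accumbens and 68.2, 58.6, 83.1 and 77.6 CPM in dorsal striatum. Every accumbens library was below every dorsal striatum library with TMM scaling, by a narrow margin between accumbens 1 and dorsal striatum 2. On unscaled CPM these libraries overlapped, at 58.9 CPM in accumbens 1 and 58.8 CPM in dorsal striatum 2. The log2 fold change was -0.64 (SE 0.21), and the edgeR adjusted p of 0.125 did not pass the threshold. Across the alternatives the adjusted p of Ndufs3 ran from 0.0599 with DESeq2 to 0.517 with the glial marker covariate. Among all tested genes, 781 had a lower adjusted p than any gene of the set. Ndufs3 lies on chr2:90894634-90904827 (minus strand, GRCm38), its exons overlap those of Kbtbd4 on the opposite strand, and 39.7% of its 50-base stretches also occur in other genes. That share counts both strands, so part of it can be the overlap with Kbtbd4 itself. Kbtbd4 had a log2 fold change of -0.31 (SE 0.28, edgeR adjusted p = 0.682), and since the strand setting of the counting is not given in the sources used here, reads of these neighbours may not be fully separated.

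Besides Ndufs3, only Ndufs4 and Ndufb3 had regions that did not overlap on TMM-scaled CPM, both lower in accumbens, and these were named after their values were seen. Over the set that makes 0 genes without overlap that were higher in accumbens and 3 that were lower, against 4.51% and 5.18% of all tested genes, 9.69% in either direction. On unscaled CPM the counts were 0 higher and 1 lower, Ndufs4, against 5.45% and 4.27% of all tested genes. On TPM the regions overlapped for Ndufs3, Ndufs4 and Ndufb3 alike. For Ndufs4 they did so at 205 TPM in accumbens 1 and 197 TPM in dorsal striatum 4. Ndufs4, an accessory subunit whose loss in mice causes an encephalopathy like Leigh syndrome, was at 104, 81.2, 99.7 and 89.9 CPM in accumbens and 115, 114, 123 and 111 CPM in dorsal striatum. Its log2 fold change was -0.30 (SE 0.15, edgeR adjusted p = 0.359). Ndufb3, a small subunit of the membrane arm, was at 36.6, 23.5, 34.6 and 38.1 CPM in accumbens and 38.6, 39.1, 43.9 and 61.3 CPM in dorsal striatum. Accumbens 4 and dorsal striatum 1 lay next to each other, and on unscaled CPM the regions overlapped, at 39.8 CPM in accumbens 4 and 37.7 CPM in dorsal striatum 1 (log2 fold change -0.46, SE 0.23, edgeR adjusted p = 0.379).

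The 4 genes of complex II gave 1 positive and 3 negative estimates, with a median of -0.01. Sdha, the flavoprotein that oxidises succinate, was the most abundant of them at 503, 591, 612 and 621 CPM in accumbens and 579.6, 502, 753 and 527 CPM in dorsal striatum. The regions overlapped widely, and dorsal striatum 3 was the highest library. The log2 fold change of Sdha was -0.02 (SE 0.14, edgeR adjusted p = 0.975), and it was 0.12 without dorsal striatum 3, on the other side of 0. Sdhb, which carries the iron-sulfur clusters, averaged 58.2 ± 7.28 CPM in accumbens and 57.9 ± 9.06 CPM in dorsal striatum (n = 4 each). Sdhc, a membrane anchor, was at 89.4, 82.6, 70.9 and 72.9 CPM in accumbens and 119, 92.6, 67.4 and 128 CPM in dorsal striatum. Dorsal striatum 3 was below every accumbens library, and the other 3 dorsal striatum libraries were above every one (log2 fold change -0.37, SE 0.19, edgeR adjusted p = 0.406). Without dorsal striatum 3 the estimate for Sdhc was -0.52 (edgeR adjusted p = 0.171), with accumbens 2 left out as well it was -0.54 (0.162), and without dorsal striatum 4 it was -0.24.

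In complex III, 5 of 9 estimates were positive and 4 negative, with a median of 0.06. Without dorsal striatum 3 there were 2 positive and 7 negative, with a median of -0.08, and without accumbens 1 the median was -0.05. Uqcrc2, a core protein of the complex, had the highest. It was at 126, 196, 151 and 147 CPM in accumbens and 119, 127, 135 and 102 CPM in dorsal striatum. Accumbens 2 was the highest library, and accumbens 1 fell within the dorsal striatum range. The log2 fold change was 0.36 (SE 0.16), with an unadjusted p of 0.039 and an edgeR adjusted p of 0.299. Of its 50-base stretches, 24.8% occur in another gene, and its exons overlap on the opposite strand those of Pdzd9, which had 0 to 31 counts in accumbens libraries and 0 to 5 in dorsal striatum libraries. The share counts both strands, so it can be this same overlap. Uqcrc1, the partner of Uqcrc2, averaged 71.4 ± 11.3 CPM in accumbens and 68.3 ± 13.97 CPM in dorsal striatum. Cyc1, the cytochrome c1 that hands electrons to cytochrome c, averaged 52.1 ± 13.7 and 43.4 ± 12.9 CPM, and Uqcrfs1, the Rieske iron-sulfur protein, 37.7 ± 10.6 and 45.7 ± 4.78 CPM in the same order (n = 4 each). The lowest estimate of the complex was that of Uqcrb, a small subunit, at -0.42 (SE 0.25, edgeR adjusted p = 0.484), and 43.4% of its 50-base stretches occur in other genes. It was -0.22 without dorsal striatum 4.

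In complex IV, 2 of 11 tested genes had positive and 9 had negative estimates, with a median of -0.18, and 0 were called. The number of positive estimates was 0 without accumbens 1, 1 without dorsal striatum 2 or dorsal striatum 3 and 3 without dorsal striatum 1, and the median ran from -0.27 without dorsal striatum 3 to -0.06 without dorsal striatum 4. Cox5b, a nuclear subunit on the matrix side, was the lowest. It was at 92.1, 60.7, 70.8 and 58.5 CPM in accumbens and 99.8, 88.6, 72.2 and 106 CPM in dorsal striatum. Accumbens 1 lay within the dorsal striatum range and the other 3 accumbens libraries lay below it (log2 fold change -0.38, SE 0.19, edgeR adjusted p = 0.368). Cox4i1, which takes part in the regulation of the enzyme by ATP, averaged 115 ± 13.96 CPM in accumbens and 122 ± 28.2 CPM in dorsal striatum. Cox5a averaged 67.4 ± 11.01 and 79.6 ± 10.9 CPM, Cox6a1 155 ± 23.1 and 175 ± 26.4 CPM, Cox6b1 67.5 ± 17.6 and 80.7 ± 18.1 CPM, and Cox8a 173 ± 32.4 and 196 ± 42.2 CPM in the same order (n = 4 each). The highest estimate of the complex was 0.13 for Cox7a2 (SE 0.24, edgeR adjusted p = 0.870). It was -0.01 without dorsal striatum 3, -0.04 without accumbens 1 and 0.29 without accumbens 2, so that its sign rested on single libraries. Cox7a2l, which joins complexes into supercomplexes, stood at 74.6, 61.5, 59.4 and 61.5 CPM in accumbens and 67.8, 58.2, 74.8 and 55.1 CPM in dorsal striatum, ranges that overlap.

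Where complex IV has alternative subunits for different tissues, the general form carried nearly all counts in both regions. Cox6a2, the heart and muscle form, had 26 counts over the 4 accumbens libraries and 9 over the 4 dorsal striatum libraries, spread over 5 libraries in all. Cox7a1, another heart and muscle form, had 26 counts in accumbens, with 14 of them in accumbens 1 and 0 in accumbens 2, and 0 in dorsal striatum. Cox8b, the muscle form of Cox8a, had 0 counts in all 8 libraries, as had Cox8c, a testis form. Cox4i2, the form used in lung, had 0 counts in accumbens and 1 in dorsal striatum. The testis forms Cox6b2 and Cox7b2 had 0 and 7 counts in accumbens and 1 count each in dorsal striatum. Outside complex IV, Ndufa4l2, a relative of Ndufa4 that is induced by hypoxia, had 7 counts in accumbens and 5 in dorsal striatum, whereas Ndufa4 averaged 136 ± 26.0 and 129 ± 17.5 CPM in the same order. The highest count of any of these 8 genes in a library was 15, and none was tested.

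Complex V held the most abundant transcripts of the set, and its 17 genes gave 7 positive and 10 negative estimates with a median of -0.06. Without dorsal striatum 4 there were 10 positive and 7 negative, with a median of 0.05. Atp5b, the catalytic beta subunit and the marker of the set, had the most precise estimate. It was at 1691, 1745, 1782 and 1746 CPM in accumbens and 1479, 1627, 1722 and 1850.1 CPM in dorsal striatum. On TMM-scaled CPM the accumbens libraries lay inside the dorsal striatum range, though not on TPM, as given below. The log2 fold change was 0.06 (SE 0.10, edgeR adjusted p = 0.859), a fold change of 0.899 to 1.21 at 95% confidence. Atp5a1, the alpha subunit, averaged 850 ± 76.8 CPM in accumbens and 889 ± 130 CPM in dorsal striatum, and Atp5c1, the gamma subunit that forms the rotor stalk, 189 ± 15.5 and 202 ± 10.6 CPM (n = 4 each). Their 95% intervals ran from 0.797 to 1.15-fold for Atp5a1 and from 0.775 to 1.12-fold for Atp5c1. For these core subunits of the motor, a difference of 1.5-fold lies outside the intervals.

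**Figure D4:**
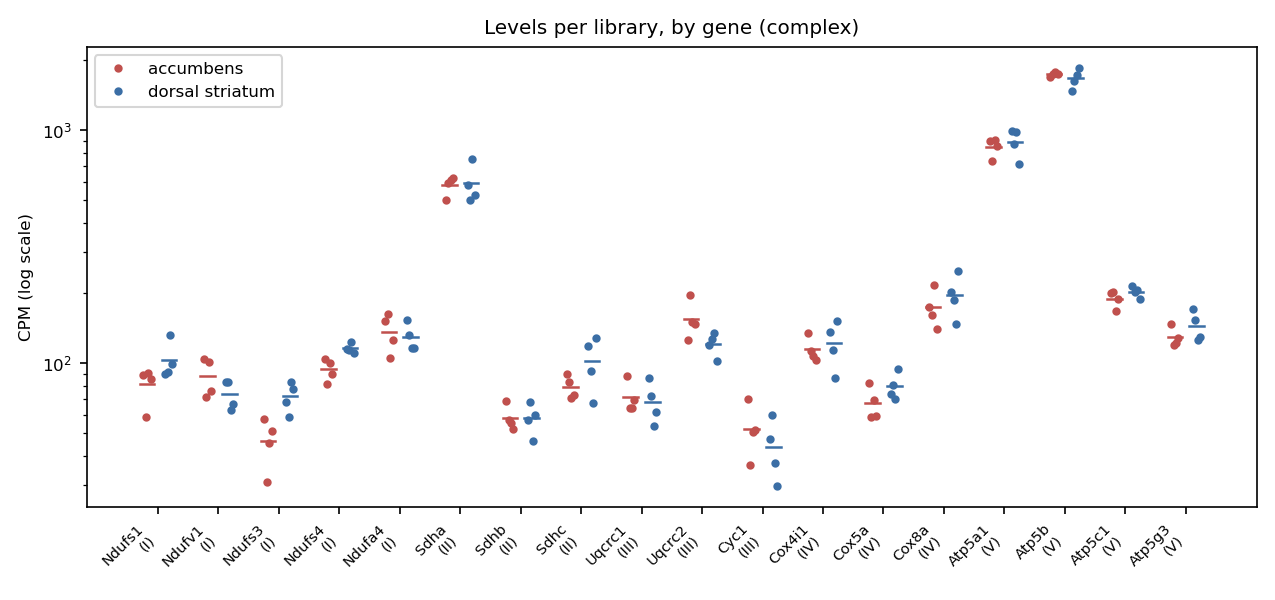
CPM on a log axis of 18 genes of complexes I to V in each library (points) with the region mean (line), accumbens left of dorsal striatum. For Ndufs3 and Ndufs4 the accumbens points, with TMM scaling as drawn, lie below all dorsal striatum points, and for the other 16 genes the regions overlap, as for Atp5b with 1691 to 1782 CPM in accumbens and 1479 to 1850.1 CPM in dorsal striatum.

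With Atp5sl kept in it by symbol, the extremes of complex V were among its least abundant genes. Atp5sl was at 17.1, 23.7, 26.2 and 19.5 CPM in accumbens and 20.0, 16.1, 5.81 and 15.4 CPM in dorsal striatum. Dorsal striatum 3 was far below the rest, and the log2 fold change of 0.59 (SE 0.34) had an edgeR adjusted p of 0.461. Without dorsal striatum 3 the estimate for Atp5sl was 0.33. Atp5sl is not a subunit, and the highest estimate of the complex without it was 0.38 for Atp5d (SE 0.22, edgeR adjusted p = 0.461). Atp5d was more abundant, at 132 ± 22.3 CPM in accumbens and 101 ± 37.7 CPM in dorsal striatum. Atp5g2 had the lowest estimate at -0.44, with an SE of 0.64, and it was 0.07 without dorsal striatum 4. With Atp5g1 and Atp5g3 it forms a family of 3 genes whose different precursors yield the same subunit c, the ring that turns as protons pass. Atp5g1 lies on chr11:96068852-96075670, Atp5g2 on chr15:102662864-102672352 and Atp5g3 on chr2:73908447-73911326, all on the minus strand (GRCm38). Their coding sequences end in the following 60 bases. Reads that lie wholly within them can be told apart only through the letters in which the genes differ. Over the whole transcripts, the genes that share 50-base stretches with Atp5g1 (3) and Atp5g2 (2) were all pseudogenes, and Atp5g3 shared none. Capitals mark the 17 positions that are not the same in all 3.
Atp5g1: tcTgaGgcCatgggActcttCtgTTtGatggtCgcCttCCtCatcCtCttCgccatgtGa
Atp5g2: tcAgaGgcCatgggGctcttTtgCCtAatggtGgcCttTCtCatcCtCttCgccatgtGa
Atp5g3: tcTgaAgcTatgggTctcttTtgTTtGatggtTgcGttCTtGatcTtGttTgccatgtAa

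Atp5g1 and Atp5g2 differ at 8 of these bases, Atp5g1 and Atp5g3 at 12, and Atp5g2 and Atp5g3 at 16. Of the summed TPM of the 3 genes, Atp5g3 made up 55.1% to 62.9% in accumbens and 57.6% to 72.9% in dorsal striatum. Atp5g1 made up 33.5% to 42.1% in accumbens and 22.5% to 36.1% in dorsal striatum, and Atp5g2 1.71% to 3.63% and 1.31% to 6.34%. Atp5g3 was thus the highest of the family in every library. The Atp5g2 transcript used for these shares has 441 bases, all coding, and the longest protein-coding transcript of the gene has 731. Those used for Atp5g1 (596 bases, 411 coding) and Atp5g3 (714 bases, 426 coding) also hold untranslated bases. The low share of Atp5g2 cannot be taken as its level. In the coding sequence used, 100% of its 50-base stretches occur also in 2 pseudogenes, and reads with more than 1 alignment carried no gene. The same holds for Atp5l, at 3.12 CPM the lowest tested gene of the set, with 84.8% of its stretches shared with 14 other genes, 12 of them pseudogenes. Atp5g1, Cox7c and Atp5h also had over 50% of their sequence in other genes, at 66.0%, 53.0% and 50.5%, and 30 of the 85 genes had over 10%. Both strands were matched, so for some genes this sharing can be exon overlap with a neighbour on the opposite strand. Levels of these genes are uncertain.

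Levels per length allow genes to be set beside each other. Within complex V the TPM ran from 18.4 for Atp5l to 2868 for Atp5b, with a median of 353, so that Atp5b stood 8.13 times above the median of its complex. It was the highest gene of the set, at 3032 ± 71.0 TPM in accumbens and 2704 ± 244 TPM in dorsal striatum. On TPM every accumbens library (2941.1 to 3104.5) lay above every dorsal striatum library (2359.3 to 2927.5), whereas on TMM-scaled CPM the regions overlapped. The length of a gene is the same in every library, so this change of overlap comes from how the libraries were scaled. TPM were scaled over genes with a known length only. The share of all tested genes without overlap on TPM was not counted, so the separation of Atp5b is a description only. Atp5a1, which occurs in the enzyme in the same number of copies as Atp5b, followed at 1148 ± 106 TPM in accumbens and 1118 ± 169 TPM in dorsal striatum. Cox8a (1049 ± 185 and 1105 ± 220.2 TPM) and Cox6a1 (902 ± 124 and 950.4 ± 133 TPM) came next, and these neighbours overlapped within their SD. Complex I ran from 58.8 TPM for Ndufb4 to 701 TPM for Ndufa4 with a median of 162, complex II from 91.1 TPM for Sdhc to 651 TPM for Sdha with a median of 181, complex III from 98.2 TPM for Uqcrfs1 to 640.3 TPM for Uqcrh with a median of 235, and complex IV from 192 TPM for Cox7a2l to 1077 TPM for Cox8a with a median of 396. Median levels of the tested genes were thus lowest in complex I and highest in complex IV. In complexes II and V the most abundant transcript encodes a catalytic subunit, and in complexes III and IV it encodes a small accessory subunit. Since short transcripts were low in dorsal striatum 3, TPM comparisons between short and long genes carry that spread.

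**Figure D5:**
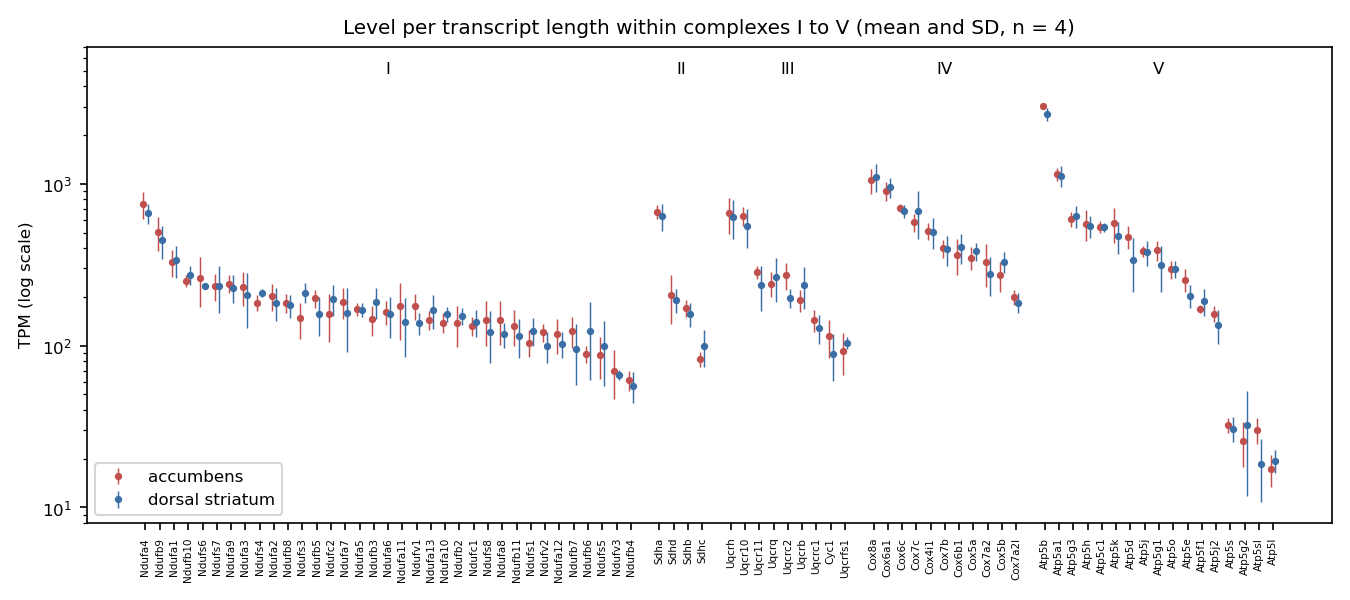
TPM on a log axis of the tested genes reported here, ordered by mean level within complexes I to V, as mean and SD of 4 libraries, accumbens left of dorsal striatum. Atp5b is highest at 3032 TPM in accumbens and 2704 TPM in dorsal striatum. Of the genes kept under complex V, 4 lie below 50 TPM, among them Atp5s and Atp5sl, which are not subunits.

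Many respiratory chain genes are known targets of the transcription factors NRF1, GABP (an ETS family factor) and YY1, so the promoters of the set were searched for their motifs. RefSeq promoter windows (GRCm38.p6, 250 bases before to 50 after the start, 300 in all) were matched for 69 of the 85 genes, in 75 windows. The NRF1 motif, GCGCA and GCGC with any base between them, was found on either strand in 18 of these windows (24%), the ETS motif CCGGAAGT in 5 (6.67%) and the YY1 motif AAGATGGC in 12 (16%). Over all 32851 windows the shares were 4.6%, 3.89% and 2.75%, and over the windows of all tested genes they were 10%, 7.85% and 4.42%. A match is a description of the letters and not a bound site. The promoters of Sdha, Cox8a and Atp5b are shown because these are the most abundant transcripts of complexes II, IV and V. Capitals mark NRF1 motifs in Sdha, of which there are 3, and ETS motifs in Cox8a, of which there are 2, and the Atp5b window holds none of the 3 motifs.
Sdha, chr13:74350191-74350490, minus strand: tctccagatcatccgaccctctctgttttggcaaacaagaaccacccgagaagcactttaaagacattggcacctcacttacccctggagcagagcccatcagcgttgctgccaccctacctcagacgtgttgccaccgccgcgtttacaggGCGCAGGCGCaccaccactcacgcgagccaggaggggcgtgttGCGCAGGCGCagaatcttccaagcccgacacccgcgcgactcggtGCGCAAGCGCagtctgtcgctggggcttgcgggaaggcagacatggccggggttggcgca
Cox8a, chr19:7217567-7217866, minus strand: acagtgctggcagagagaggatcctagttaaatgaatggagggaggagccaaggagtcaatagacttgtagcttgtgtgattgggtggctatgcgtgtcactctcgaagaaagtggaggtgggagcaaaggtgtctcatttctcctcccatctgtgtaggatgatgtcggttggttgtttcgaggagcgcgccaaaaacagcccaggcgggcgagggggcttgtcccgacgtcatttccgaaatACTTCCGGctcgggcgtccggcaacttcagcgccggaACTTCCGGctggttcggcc
Atp5b, chr10:128083057-128083356, plus strand: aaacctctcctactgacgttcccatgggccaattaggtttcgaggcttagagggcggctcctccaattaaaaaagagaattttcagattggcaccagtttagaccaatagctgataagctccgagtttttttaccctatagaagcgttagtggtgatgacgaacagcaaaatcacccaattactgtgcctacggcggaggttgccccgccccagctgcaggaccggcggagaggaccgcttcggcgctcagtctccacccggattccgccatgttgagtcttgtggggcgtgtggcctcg

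The genes that supply and surround the chain were looked at in 8 further lists, and in each of them 0 genes were called in either direction. Assembly factors, which put the complexes together, had 43 tested genes with a median log2 fold change of -0.01 (20 positive, 23 negative). Electron carriers and coenzyme Q synthesis had 16 with a median of -0.13, the citric acid cycle and pyruvate entry 21 with 0.02, glycolysis 16 with 0.07, and regulators of mitochondrial biogenesis 18 with -0.05. Transport of ADP, ATP and phosphate had 8 with a median of -0.20, mitochondrial antioxidants 8 with -0.09, and mitochondrial ribosomal proteins 74 with 0.03. No symbol of the 13 mitochondrially encoded subunits was matched, so these are not analysed here. Among the most abundant genes of the lists were Coa5 and Ttc19, Coq5 and Cycs, Ogdh, Gapdh and Eno2, Ppargc1a and Gabpa, Slc25a4 and Vdac1, Sod2 and Prdx5, and Mrpl30 and Mrpl35, in the order of the lists, and the edgeR adjusted p of those named ran from 0.0643 for Sod2 to 0.996 for Prdx5.

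Among these lists, 4 genes missed the threshold in the edgeR fit and passed it under at least 1 alternative, all with negative estimates, and they were picked out after their values were seen. In the edgeR fit 3.72% of all tested genes were called. The calls over all genes under several alternatives are given in the last section. Sod2, the manganese superoxide dismutase that removes superoxide made by the chain, was at 227, 280.1, 252 and 247 CPM in accumbens and 331, 285, 357 and 552 CPM in dorsal striatum. The regions did not overlap, and dorsal striatum 4 was the highest library. Of all tested genes, 5.18% were lower in accumbens without overlap, and 9.69% lacked overlap in either direction. The log2 fold change of Sod2 was -0.60 (SE 0.17, edgeR adjusted p = 0.0643). It passed the threshold with DESeq2 (adjusted p = 0.0282), with upper-quartile normalization (0.0466), without the filter (0.00956) and without dorsal striatum 2 (0.0275). Sod2 did not pass in the other alternative fits, among them RLE normalization, limma-voom, the replicate block and the glial marker covariate. Esrrg, a nuclear receptor that promotes transcription of respiratory genes, was at 34.6, 35.6, 41.5 and 45.2 CPM in accumbens and 55.0, 57.1, 84.7 and 59.6 CPM in dorsal striatum. Those ranges also did not overlap, with a log2 fold change of -0.71 (SE 0.20, edgeR adjusted p = 0.0659, DESeq2 0.0179). Ttc19, which takes part in complex III assembly, averaged 84.0 ± 10.9 CPM in accumbens and 118 ± 7.84 CPM in dorsal striatum (edgeR adjusted p = 0.0989, DESeq2 0.0382). Ldhb, the lactate dehydrogenase form that favours lactate use, averaged 753 ± 31.6 CPM in accumbens and 986 ± 157 CPM in dorsal striatum (edgeR adjusted p = 0.101, limma-voom 0.0404). It was called without dorsal striatum 4, at an adjusted p of 0.0213.

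As sums, the antioxidant list had 471 to 492 CPM in accumbens and 529 to 805 CPM in dorsal striatum, of which Sod2 was the largest part. Assembly factors summed to 834 to 894 CPM in accumbens and 929 to 1114 CPM in dorsal striatum. On unscaled library totals that gap nearly closed, with 932.0 CPM in the highest accumbens library and 932.6 CPM in the lowest dorsal striatum library. The transport list summed to 1380.3 to 1464 CPM in accumbens and 1487 to 1729 CPM in dorsal striatum with TMM scaling, and its regions overlapped without it. The sums of electron carriers, the citric acid cycle, glycolysis, biogenesis regulators and mitochondrial ribosomal proteins overlapped between the regions with and without TMM scaling. Their log2 ratios of accumbens over dorsal striatum with TMM scaling were -0.14, -0.004, 0.004, -0.18 and 0.009 in that order. These sums are descriptions, with no test.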

How the data were processed

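Ribosome-bound RNA from 4 accumbens and 4 dorsal striatum libraries was grouped by title. The files the authors deposited hold whole-number read counts for each gene symbol, without normalization. The submitters' processing notes name STAR 2.0.0e, HTSeq and the mm10 build. The annotation, read filters and strand setting are not given in the sources used here. Totals of reads without a gene, with more than 1 gene or with more than 1 alignment were 35.5% to 40.6% of counted reads in accumbens and 27.1% to 33.8% in dorsal striatum, and entered neither library sizes nor tests.

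Regions were compared by the quasi-likelihood F test of edgeR 4.0.16 (R 4.3.3; TMM; filterByExpr, minimum count 10; region as the only term; Benjamini-Hochberg over 12467 genes; threshold 0.05), checked on simulated data. A standard error is the log2 fold change divided by the square root of F. CPM use TMM-scaled library sizes. TPM use the length of 1 GENCODE M21 transcript a gene and are scaled over the 23923 of 32531 genes with a length. Coordinates are 1-based from that GRCm38 annotation. Shared sequence is the percent of a transcript's 50-base stretches found on either strand in other GENCODE genes, so exon overlap with a neighbour also counts. Members and lists were chosen with earlier results of these data known. Genes were named by role, by tissue-specific isoform sets and as the extremes of each complex. Some genes that this rule took are counted in the totals and are otherwise not reported here. Intervals cover the spread between libraries, and the floor of 3 counts covers counting error only.

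Alternatives were RLE and upper-quartile normalization, 2 other filters, DESeq2 1.42.0, limma-voom 3.58.1 with quality weights, a replicate block, a glial marker covariate, thinning to the smallest library, removal of GC and length trends with and without the block, Rn45s, Lars2 and AK140265 left out, each library left out, accumbens 2 and dorsal striatum 3 left out together, a stricter set of members and unscaled CPM.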

Additional observations from a re-analysis of the deposited data

Results flagged for a closer look

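Cox7a2l, the supercomplex factor, had 1 accumbens library far from the other 3. Accumbens 1 stood at 74.6 CPM and the other accumbens libraries at 59.4 to 61.5 CPM, a gap of 0.859 of the region's whole range, past the critical value of Dixon's test for 4 values. In all, 72 groups of 4 libraries were looked at in this way and 1 was beyond its critical value, fewer than the share of about 1 in 20 that chance gives. The cause was not tested.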

How the results depend on the processing

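The count of respiratory chain genes called in either direction was 0 under every alternative run, and the lowest adjusted p of a member was 0.0599, for Ndufs3 with DESeq2. The median log2 fold change of the members ran from -0.12 to 0.00 when each library was left out. Of 651 values of the 31 named members under alternatives, 48 had the other sign and 0 were called. Leaving out single libraries also turned the sign of summed levels and of estimates near 0, as given beside them. For the sums, and for overlap between regions on unscaled CPM, these alternatives were chosen after seeing the data. Over all genes, calls higher in accumbens (200) became 350 without the filter, 392 with DESeq2 and 86 with the glial covariate, and 139 to 198 with a library left out. Calls lower in accumbens (264) became 403 with DESeq2 and 118 with the glial covariate, and 184 to 264 with a library left out. In the other mitochondrial and energy lists, calls lower in accumbens (0) became 1 with upper-quartile normalization, 2 without the filter, 3 with DESeq2, 1 with limma-voom and 0 to 1 with a library left out. DESeq2 fitted 19169 genes, and those 3 calls stand beside 392 higher and 403 lower over all genes. The cause of these changes was not tested. Same-numbered libraries deviated with correlations of -0.08 to 0.01, none best with its own number, so the numbers were not taken as pairs. With the replicate number as a block, 194 genes were called higher and 238 lower, 0 of them members. Depth limits the 8 untested genes, which had at most 15 counts in a library, and for 48 of the 77 tested members the 95% interval reached past 1.5-fold.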
